A study of Mus musculus with 4 samples.

Results

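The matrix-rich spots described here were 74 of the 741 spots that remained in the heart section taken 7 days after cryoinjury (d7), out of 3067 spots listed in 4 sections. They were chosen from their own RNA counts. Of the 776 spots listed for d7, 774 held at least 500 unique molecular identifiers (UMIs, one for each RNA molecule captured), and 33 of these were dropped because they held a UMI of Mylpf or Myh3, myosin genes of skeletal muscle. The rest were ranked by a score, the UMIs of Col1a1, Col1a2, Col3a1, Postn, Fn1 and Tnc as a share of all UMIs of the spot, and the top 10% were taken. The 667 spots below them are called the other spots.

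After cardiac injury, resident fibroblasts become activated and secrete a collagen-rich matrix that replaces lost muscle, while macrophages clear debris. Fibrillar collagens carry tension, elastic fibres made of elastin on a microfibril scaffold carry recoil, and matricellular proteins such as periostin and tenascin-C tune how cells attach. The same matrix proteins also build large vessels, valves and the outer layers of the heart, so a matrix gene by itself does not name a place. The neonatal mouse heart is known for its capacity to regenerate in the first days after birth, before scarring becomes the usual outcome.

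In the Visium assay a section is laid on barcoded capture spots, each a small region that can hold several cells. The hearts came from ICR mice in which a cooled probe was held against the left ventricular apex for 5 seconds at postnatal day 1. The d7 section was from a heart at postnatal day 8, and sections at d1, d4 and d14 (postnatal days 2, 5 and 15) were used to set it in time. Every animal was injured, each time had 1 section, and no uninjured heart is among the labels, so time, age and animal cannot be told apart and no comparison has a replicate. The sections held 3419864, 6187656, 6358894 and 4741982 UMIs at d1, d4, d7 and d14. Xist, expressed from the inactive X chromosome, had 1 UMI at d7, against 158 to 341 in the other sections, and the Y-linked Eif2s3y had 460 at d7 and 0 in the others.

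Because the spots of a section come from 1 heart they are not replicates, and no test between them was run. Counts were pooled over the spots of a group and given as CPM, UMIs per 1e6 counted UMIs, leaving the scoring, haemoglobin and mitochondrially encoded genes out of the total. A ratio is the CPM of the matrix-rich spots over that of the other spots, with a 95% interval that covers counting error only. A gene with at least 20 UMIs over both pools is called higher where its ratio is 2 or more and lower where it is 0.5 or less, if the interval excludes 1. The call uses the counted ratio, so a gene at 0 UMIs in the matrix-rich spots is called on its interval, and 13 genes were called lower in this way, 10 of them with a ratio above 0.5 at a floor of 3 counts. All genes come from the same spots that the score ranked, so the differences describe these spots and support nothing beyond them. In pooled spots, fewer cells of a type and less RNA per cell cannot be told apart.

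The score itself is given as a description. It had a median of 1.51% in the matrix-rich spots, up to 5.44%, and a median of 0.321% in the other spots. The last spot in had 0.7898% and the first spot out 0.7834%, so the lower edge of the group is a step along a slope and not a gap. Col3a1 reached 9245 CPM in the matrix-rich spots, against 1676 CPM in the other spots, and Tnc 576 against 13.3 CPM. The matrix-rich spots were shallower, with a median of 6221 UMIs (2375 to 11356) against 8134 (1123 to 17543), and mitochondrially encoded genes took 6.07% of their UMIs against 12.1%. The part of depth and of the mitochondrial share in the results was not tested.

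Since the score ran over a wide range within the group, the matrix-rich spots were also described as the upper 37 spots (1.51% to 5.44%) and the lower 37 spots (0.790% to 1.504%). Each set was compared with the same 667 other spots. The upper 37 had a mitochondrial share of 4.12% and the lower 37 had 8.18%.

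**Figure D1:**
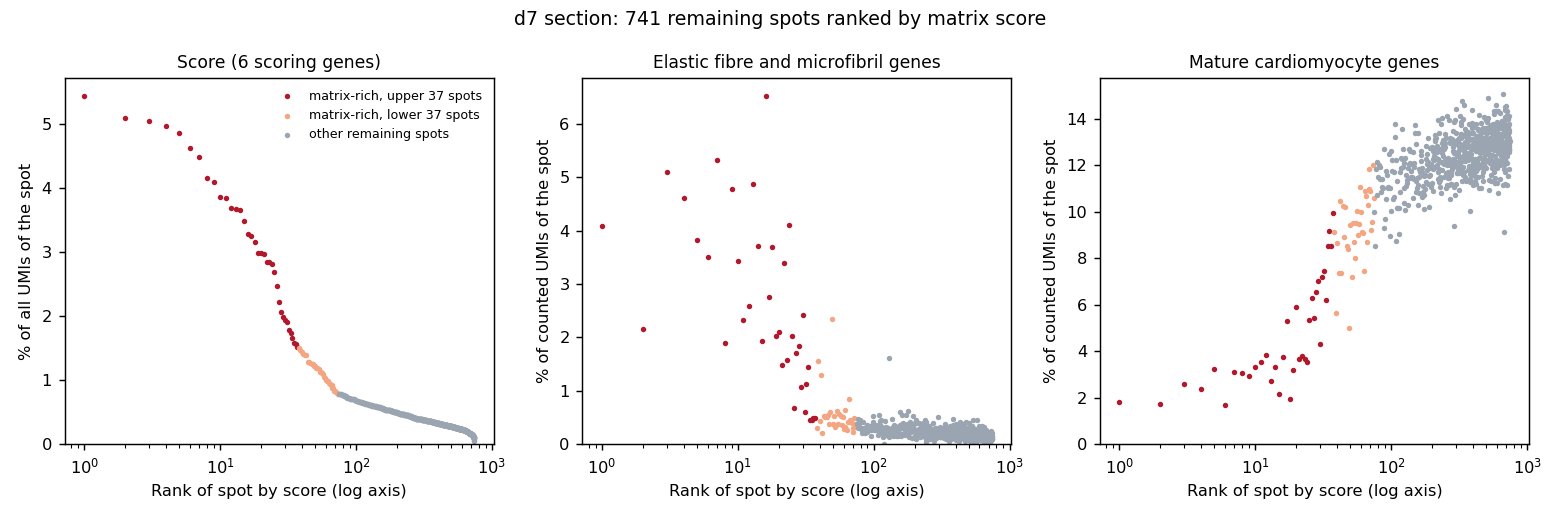
The 741 remaining spots of the d7 section by rank of matrix score (log axis), with the score as a percentage of all UMIs of the spot (left), and the shares of counted UMIs from the elastic fibre list (middle) and the mature cardiomyocyte list (right). The elastic fibre share is spread up to 6.53% in the upper 37 spots and reaches 2.35% in the lower 37, and the cardiomyocyte share climbs from a low of 1.70% at high score to a median of 12.6% in the other spots.

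Of 11082 genes tested, 1196 were higher in the matrix-rich spots (10.8%) and 229 were lower (2.07%). The median log2 ratio of all tested genes was 0.22, slightly on the higher side. With TMM scaling, which centres the bulk of the genes, 677 genes were higher and 726 lower, and the share of calls that were higher was 48.3% in place of 83.9%. That scaling lowers every log2 ratio by 0.32, and a gene then needs a ratio of 2.49 to be called higher or of 0.622 to be called lower. Of 173 named genes called higher, 35 had a ratio under 2.49. The counts of list members are to be read against 10.8% higher and 2.07% lower among all genes tested.

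**Figure D2:**
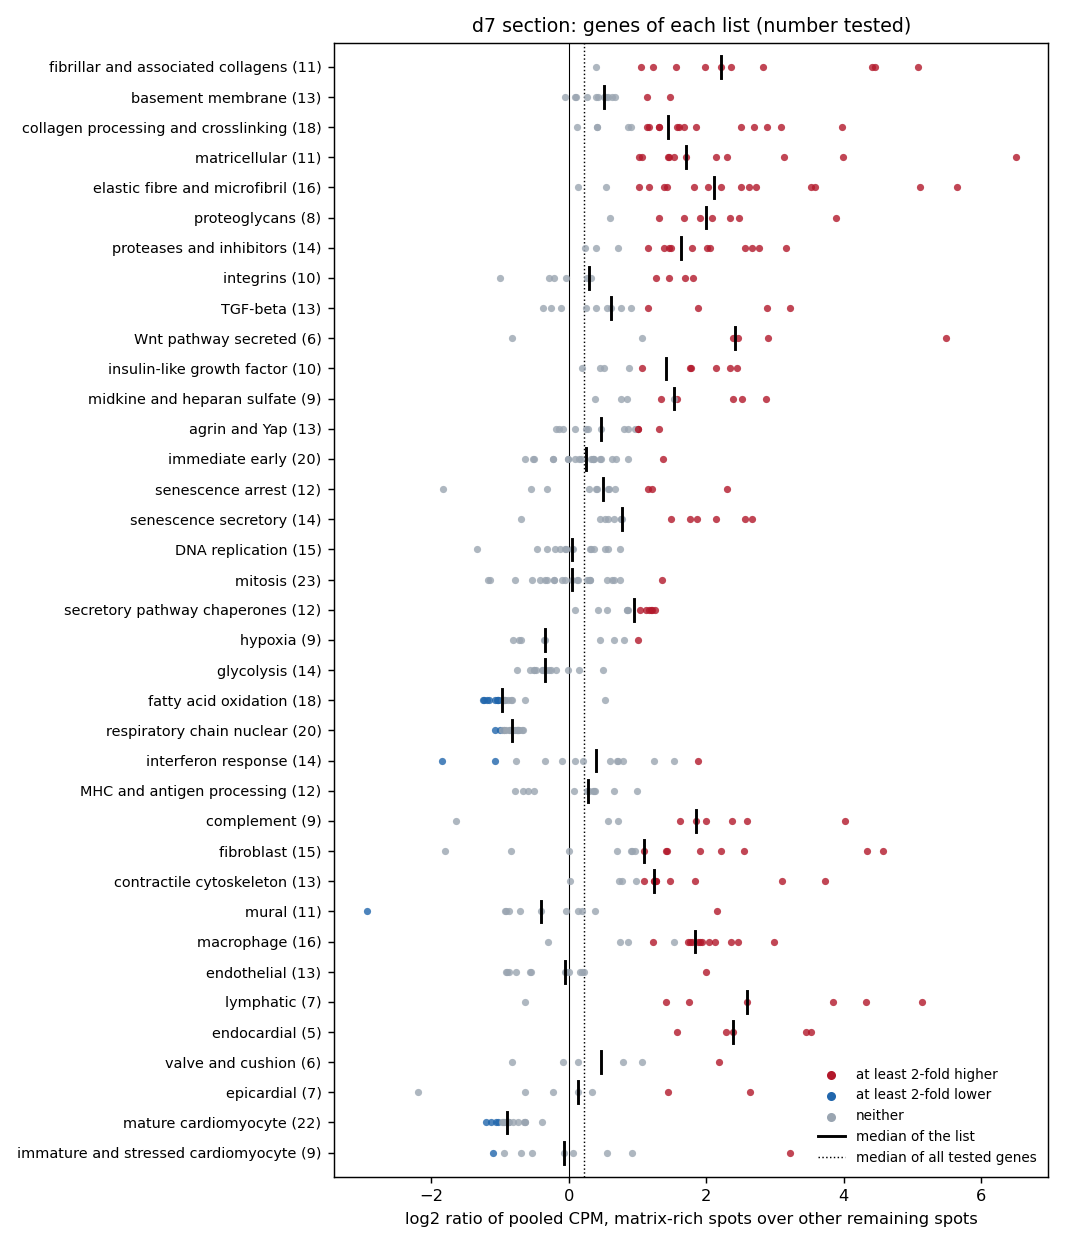
Log2 ratio of pooled CPM, matrix-rich spots over other spots, for each tested gene (points) of the 37 lists with at least 5 tested genes, with list medians (bars) and the median of all tested genes (dotted line, 0.22). Matrix, lymphatic and endocardial lists lie to the right with medians of up to 2.60, and the cardiomyocyte, fatty acid oxidation and respiratory chain lists lie to the left, with medians down to -0.98.

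Elastic fibre genes together reached 17066 CPM in the matrix-rich spots, against 1989 CPM in the other spots, and Eln made up most of the sum in the matrix-rich spots. Eln, which encodes elastin (chr5:134702593-134747323 in GRCm38), had a lowest, median and highest value of 301, 12253 and 52836 CPM over the upper 37 spots, 0, 671 and 17318 CPM over the lower 37 and 0, 199.6 and 11146 CPM over the other spots. Every upper spot held an Eln UMI, and 20 of the 74 matrix-rich spots lay above the highest of the other spots, though the groups overlapped. Pooled, it was at 9909 CPM in the matrix-rich spots and 288 CPM in the other spots, a ratio of 34.4 (32.4 to 36.6). In all, 14 of 16 elastic fibre genes tested were higher and 0 lower, with a median log2 ratio of 2.12. Among them were the microfibril genes Fbn1 (3.53) and Fbn2 (2.69), the fibulin Fbln5, which tethers elastin to cells (11.5), and Mfap4 (11.9). Ltbp2, a latent TGF-beta binding protein of microfibrils, had 91 UMIs in the matrix-rich spots and 21 in the other spots, a ratio of 50.1 (30.9 to 84.8). With TMM scaling 12 of the 16 stayed higher.

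The collagens that were not part of the score were higher too. Of 11 fibrillar and associated collagen genes, 10 were higher (8 with TMM scaling) and 0 lower, with a median log2 ratio of 2.22. Col5a1, which nucleates collagen fibrils, was at 0, 768 and 3354 CPM (lowest, median and highest) over the matrix-rich spots and 0, 196 and 1063 CPM over the other spots, with a pooled ratio of 3.94 (3.51 to 4.42). Spots of both groups overlapped, but 46 of the 74 matrix-rich spots were above the 95th percentile of the other spots. Col12a1, a collagen of tension-bearing fibrils, had 82 UMIs against 28 and the largest ratio of the list, 33.8 (21.8 to 54.0). Col8a1 (21.8) and Col11a1 (21.2) followed, while Col6a1 (2.34), Col6a2 (2.07) and Col6a3 (2.94), chains of the pericellular microfilament collagen, were nearer 2. Basement membrane genes differed less: 2 of 13 were higher, Nid1 (2.78) and Col18a1 (2.21), and the most abundant, Col4a1, was at 1348 CPM against 1119 CPM, a ratio of 1.21.

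Enzymes and chaperones that process collagen were higher with their substrates in 13 of 18 cases (9 with TMM scaling), with 0 lower and a median log2 ratio of 1.45. Lox and Loxl1, which oxidise lysines so that collagen and elastin crosslink, had ratios of 15.6 (11.7 to 21.1) and 6.47 (5.77 to 7.26). Loxl1 was at 0, 624 and 3636 CPM over the matrix-rich spots and 0, 141 and 1176 CPM over the other spots, and 26 matrix-rich spots exceeded all other spots. The procollagen N-proteinase Adamts2 (7.37), the prolyl 3-hydroxylase P3h1 (3.60) and the collagen chaperone Serpinh1 (2.48) were among the rest. The general chaperones of the secretory pathway differed less, with 6 of 12 higher and a median of 0.95. Pdia3 (2.38) and Calr (2.17) were called, Hspa5 was at 512 CPM against 379 CPM and was not, and with TMM scaling 0 of the 12 were called.

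Matricellular genes were higher in 11 of 11 tested, or 9 with TMM scaling, with a median log2 ratio of 1.71. Sparc, which binds collagen during its assembly, was at 679.5, 3661 and 7789 CPM over the matrix-rich spots and 0, 1383 and 6135 CPM over the other spots, with 59 of the 74 above the 95th percentile of the other spots and a ratio of 2.76 (2.61 to 2.91). Ccn5, a member of the CCN family that lacks the C-terminal domain of its relatives, had 55 UMIs against 7, a ratio of 90.8 (41.2 to 236). Cthrc1, made by activated fibroblasts, had a ratio of 15.9, and Thbs4 of 8.77. Its relative Thbs1 had 35 UMIs against 193 and a ratio of 2.10 (1.42 to 3.02), which TMM scaling does not call.

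Small leucine-rich and large proteoglycans were higher in 7 of 8 tested, with a median of 1.99. Bgn, or biglycan, was found in every matrix-rich spot, at 337, 1454 and 5020.1 CPM against 0, 281 and 1617 CPM in the other spots, and 29 of the 74 exceeded all other spots. Its ratio was 5.57 (5.10 to 6.08), that of the collagen-binding Fmod 14.9 and that of the large proteoglycan Vcan 4.23. Dcn, or decorin, was higher by less, at 1348 CPM against 542 CPM, a ratio of 2.49. With TMM scaling its log2 ratio was 0.998, just short of a call, and 6 of the 8 proteoglycan genes stayed higher. Of 14 proteases and inhibitors tested, 11 were higher, among them Mmp2, a gelatinase (4.15), Mmp23 (8.98), and the metalloproteinase inhibitors Timp1 (6.36) and Timp2 (2.80).

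The 10 largest ratios of the section, by the rule for named genes, belonged to Wfdc18, Cemip, Osr1, Ccn5, C1qtnf3, Ltbp2, Vegfd, Sfrp2, Cilp and Ccl21a. Wfdc18 (chr11:83709015-83711348), a whey acidic protein family gene, had 317 UMIs in the matrix-rich spots and 12 in the other spots, a ratio of 305 (172 to 597). It was at 0, 696 and 5656 CPM over the upper 37 spots, 0, 0 and 359.8 CPM over the lower 37 and 0, 0 and 216 CPM over the other spots. At least 1 UMI was found in 30 of the upper 37, 3 of the lower 37 and 11 of the 667 other spots, so 96.4% of its UMIs in the remaining spots sat in the matrix-rich group. The 9 other genes of the epithelial list it stands in had too few UMIs to be tested, and Wfdc2, Cdh1 and Sftpc had 0, 0 and 1 UMIs in the matrix-rich spots. Osr1 (chr12:9570116-9581500), a transcription factor of mesenchymal progenitors, had 133 UMIs against 16, with 128 of them in the upper 37 spots. Cemip, which breaks down hyaluronan, had 24 against 2 UMIs, and its ratio of 139 therefore has the wide interval of 34.4 to 1211. Cilp, a matrix protein of cartilage and activated fibroblasts, was high in both sets, with ratios of 46.4 in the upper 37 and 28.5 in the lower 37.

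Secreted signals of several families were higher. Of 6 secreted Wnt pathway genes tested, 4 were higher: the frizzled-related proteins Sfrp1 (7.43), Sfrp2 (44.8) and Frzb (5.49), which bind Wnt ligands, and the Dickkopf family member Dkk3 (5.22). Sfrp2 had 186 UMIs against 48, at 0, 171 and 2409 CPM over the matrix-rich spots and 0, 0 and 1585 CPM over the other spots, so single other spots reached the same range. In the TGF-beta list 4 of 13 were higher with a median of 0.61: the ligands Tgfb2 (3.67) and Tgfb3 (9.33), the activin subunit Inhba (7.35) and the signalling repressor Skil (2.22). The receptor Tgfbr2 was at 90.1 CPM against 48.0 CPM and was not called.

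Of 10 genes of the insulin-like growth factor axis, 6 were higher, with a median of 1.41. Igf1, the growth factor, was among them (5.46), as were the binding proteins Igfbp4 (4.42), Igfbp5 (2.09), Igfbp6 (3.44) and Igfbp7 (3.40). The sixth was H19, the maternally expressed RNA next to Igf2, at 0, 557 and 4236 CPM over the matrix-rich spots and 0, 115 and 2461 CPM over the other spots. Its pooled level was 801 CPM against 157 CPM, a ratio of 5.10 (4.47 to 5.80), and both sets of 37 were high (5.83 and 4.31). Igf2 had a ratio of 1.84, 1.52 in the upper 37 and 2.19 in the lower 37 spots. The heparin-binding growth factors Mdk (5.24) and Ptn (7.27) were higher, with 5 of 9 genes of their list called, among them the heparan sulfate carriers Sdc1 (2.53) and Gpc3 (5.73) and the endocytic receptor Lrp1 (2.97). Integrins were higher in 4 of 10, Itga8, Itgav, Itgb3 and Itgb5, with a list median of 0.30 that turned to -0.02 with TMM scaling.

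Agrin, the extracellular proteoglycan encoded by Agrn, was at 0, 133 and 840.0 CPM over the matrix-rich spots and 0, 0 and 665 CPM over the other spots, which overlap almost entirely. Its pooled ratio of 2.01 (1.55 to 2.57; 180.1 CPM against 89.6 CPM) just passed the limit of 2 and does not pass it with TMM scaling. Its receptor component Dag1 had a ratio of 0.910. Yap1 (2.02) and its partner Tead2 (2.48) were the other called genes of 13 in the agrin and Yap list, and with TMM scaling 0 were called.

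Egr1, an immediate early transcription factor that gives the series its title, was not among the called genes. It had 45 UMIs in the matrix-rich spots and 323 in the other spots, 107 against 66.2 CPM, a ratio of 1.61 (1.15 to 2.20). Its UMIs were split between the sets, 19 in the upper 37 and 26 in the lower 37 spots. It was found in 33 of the 74 matrix-rich and 243 of the 667 other spots. After each spot was thinned to 2500 UMIs, 23.3% of the matrix-rich spots and 12.5% of the other spots held an Egr1 UMI. Of 20 immediate early genes tested, 1 was higher, Junb (17 against 76 UMIs, ratio 2.59), and the list median was 0.25, near that of all genes and -0.07 with TMM scaling.

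Cell cycle arrest genes linked with senescence were higher in 3 of 12 tested, or 1 with TMM scaling, with a median of 0.49. Cdkn1a, which encodes the inhibitor p21, had 17 UMIs against 149, a ratio of 1.32 (0.748 to 2.18), and was not called. The called genes were Cdkn1c, the imprinted inhibitor p57 (2.23), Gadd45b (4.95) and Glb1, the lysosomal beta-galactosidase (2.31). Of 14 tested genes of the senescence secretory list 6 were higher, among them Igfbp4, Igfbp7, Timp1 and Timp2, which also stand in lists above, and the growth factor Fgf2 (3.65). Cell division genes gave little. Among 15 DNA replication genes 0 were called in either direction, and 1 of 23 mitosis genes, Nusap1 (14 against 63 UMIs), was higher. Mki67, found in cycling cells, was at 49.8 CPM against 53.1 CPM.

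Genes of fibroblasts were higher in 8 of 15 tested, with a median of 1.10. Tcf21, a transcription factor of cardiac fibroblasts, had a ratio of 4.62 (3.47 to 6.11), Pdgfra of 2.70 and the matrix protein gene Dpt of 3.77. Dpep1 had 93 UMIs against 45 and a ratio of 23.9, and Pdgfrl 20.2. Cd34 and Ly6a, surface markers of quiescent stromal cells, were at 348 and 37.9 CPM in the matrix-rich spots and at 347 and 68.1 CPM in the other spots, with ratios of 1.01 and 0.557.

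Contractile genes of myofibroblasts and smooth muscle were higher in 9 of 13 tested, or 4 with TMM scaling, with a median of 1.25. Tagln, an actin-binding protein of smooth muscle, had a ratio of 8.63 (6.95 to 10.7) and Cnn1, or calponin, of 13.3. Acta2, smooth muscle actin, was at 0, 386 and 1148 CPM over the upper 37 spots, 0, 657 and 10779 CPM over the lower 37 and 0, 267 and 1922 CPM over the other spots. Its ratio of 2.36 (2.09 to 2.67) rested on the lower 37 (3.53) more than on the upper 37 (1.29), and 1 spot held 18.8% of the UMIs of the matrix-rich group. The same unevenness was greater for Myh11, the smooth muscle myosin: 1 spot held 44.8% of its 29 UMIs, and its ratio was 8.03 in the lower 37 and 1.18 in the upper 37. Of 11 mural genes Myh11 alone was higher and Higd1b alone was lower (2 against 177 UMIs), and Rgs5 was at 228 CPM against 431 CPM, a ratio of 0.528.

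Several genes of this contractile group are textbook targets of serum response factor, which binds the CArG box. The promoter windows of RefSeq (250 bases before to 50 after the start, GRCm38.p6) were searched for a full match to it, a palindromic motif for which 1 strand suffices. It was present in 3 of the 12 contractile genes that had a window, Cnn2, Myl9 and Vcl, and in 488 of all 27025 genes (1.81%). Myl9 is shown since it is the most abundant of the 3 in these spots, at 922 CPM against 381 CPM (ratio 2.42, 2.16 to 2.70). TMM scaling does not call Myl9, and it was not called in the upper 37. Cnn2 and Vcl were not called higher over the 74 spots, and no match was found for the other called genes of the list, among them Tagln, Cnn1 and Acta2. A link between the motif and the ratios was not tested. The window lies at chr2:156775214-156775513 on the plus strand, and capitals mark the motif.
Myl9: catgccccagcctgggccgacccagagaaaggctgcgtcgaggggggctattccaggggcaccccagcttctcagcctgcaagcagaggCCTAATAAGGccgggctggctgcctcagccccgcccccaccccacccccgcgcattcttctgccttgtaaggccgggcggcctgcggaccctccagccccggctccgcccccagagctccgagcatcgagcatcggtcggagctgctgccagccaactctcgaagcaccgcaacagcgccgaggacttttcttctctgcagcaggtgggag
A match is a description of the letters and not a measured binding site.

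Macrophage genes were higher in 12 of 16 tested, with a median of 1.83 and 0 lower. Lyz2, the lysozyme of myeloid cells, was at 0, 167 and 2692 CPM over the matrix-rich spots and 0, 0 and 1740 CPM over the other spots, with 25 of the 74 above the 95th percentile of the other spots and a ratio of 3.40 (2.80 to 4.11). The monocyte receptor Cd14 (7.95), the lipid sensor Trem2 (5.14), Mrc1 (4.13) and the colony-stimulating factor receptor Csf1r (3.85) were others. Csf1r was at 6.77 times the level of the other spots in the upper 37 and at 0.688 times (0.1397 to 2.07, from 3 UMIs) in the lower 37. Complement genes were higher in 6 of 9, among them the 3 chains of C1q, which macrophages make, with C1qb at 5.20, C4b, which has a near-identical copy (C4a), and the inhibitor Serping1 (3.98). Antigen presentation differed less when pooled, with 0 of 12 genes called in either direction. The median share of this list was 0.151% over the matrix-rich spots and 0.0814% over the other spots, so a typical spot was higher. Single other spots reached 1.91% and single matrix-rich spots 0.583%. In the upper 37 H2-Aa was called higher and Psmb10 lower, and in the lower 37 H2-Aa was called lower, on its counted ratio. H2-K1 was at 369.7 CPM against 283 CPM and B2m at 604 against 471 CPM. Of 14 interferon response genes 1 was higher, Gbp4, and 2 were lower, the interferon-inducible GTPases Igtp (10 against 242 UMIs) and Iigp1 (4 against 165 UMIs). Their UMIs lay in few spots, 5 matrix-rich and 92 other spots for Igtp and 3 and 67 for Iigp1. The median share of the interferon list was 0.0174% over the matrix-rich spots and 0.0141% over the other spots, so a typical spot was not lower.

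Other leukocytes left few counts. The neutrophil gene S100a9 had 0 UMIs in the matrix-rich spots and 64 in the other spots, and its partner S100a8 had 4 against 34. With a floor of 3 counts in place of 0, S100a9 was 1.85-fold lower, so it is a lower call on its counted ratio only. The lymphocyte chemokine Ccl5 was higher with 14 against 41 UMIs, while 12 of 13 lymphocyte genes had too few UMIs to be tested. Cma1, a mast cell chymase, had 11 against 9 UMIs, while the mast cell genes Cpa3 and Tpsb2 had 0 and 1 UMIs in the matrix-rich spots.

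Genes of blood vessel endothelium differed less. Of 13 endothelial genes 1 was higher, Vwf (3.99, 2.52 to 6.15), with a list median of -0.05, and Kdr, a VEGF receptor, was at 90.1 CPM against 131 CPM. With TMM scaling 4 of the 13 were lower and the median was -0.37, and Vwf was not called, at a log2 ratio of 0.94, when spots with any skeletal muscle UMI were dropped. Lymphatic genes were higher in 6 of 7 tested, with a median of 2.60. Ccl21a, a chemokine of lymphatic endothelium with near-identical copies in the genome, had 185 UMIs against 61, a ratio of 35.1 (26.1 to 47.6). Lyve1, the hyaluronan receptor also found on some macrophages, had 31 against 25 UMIs, and Mmrn1 19 against 11. Ccl21a, Lyve1, Mmrn1 and Reln had 0 UMIs in the lower 37 spots, so all of their matrix-rich UMIs lay in the upper 37. Prox1, the transcription factor that defines lymphatic endothelium and is also made by heart muscle, had 8 UMIs against 144, and Vegfd, a ligand of the lymphatic receptor Flt4, had 24 against 6 UMIs.

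Endocardial genes were higher in 5 of 5 tested, with a median of 2.38: Npr3 (10.9), the transcription factor Nfatc1 (2.98), Plvap (5.22), Cytl1 (11.6) and Smoc1 (4.87). Npr3, the clearance receptor of natriuretic peptides, was spread over both sets, with a UMI in 13 of the upper 37 and 11 of the lower 37 spots and in 32 of the other spots. Of 6 valve and cushion genes 1 was higher, Sox9 (4.53), and of 7 epicardial genes Krt18 (6.19) and Tbx18 (2.72) were. The epicardial genes Msln and Wt1 had 1 and 4 UMIs in the matrix-rich spots and 53 and 72 in the other spots. Col9a2, a collagen of cartilage, had 17 against 17 UMIs, with 8 of the 11 cartilage and bone genes at 0 in the matrix-rich spots. Haemoglobin genes took 2.72% of all UMIs in the matrix-rich spots, against 0.661% in the other spots, and 1 spot held 20.8% of the Hba-a1 UMIs of the group. The red blood cell list, mostly haemoglobin, was set against counted UMIs, which leave haemoglobin out, so its values are ratios and not shares. Their median was 0.472% over the matrix-rich spots (up to 35.7%) and 0.442% over the other spots (up to 13.8%). A typical matrix-rich spot was therefore little different, and the pooled excess lay in few spots. Alas2, of haem synthesis in red cells, had a ratio of 3.61. The part of blood in these vessel and endocardial genes was not tested.

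Heart muscle genes took a smaller share of the RNA. The mature cardiomyocyte list took a median of 7.38% of counted UMIs over the matrix-rich spots (1.70% to 11.98%), against 12.6% (8.53% to 15.1%) over the other spots, and 68 of the 74 spots lay below the 5th percentile of the other spots. Myh6, the alpha myosin heavy chain, was at 1948, 9016 and 15212 CPM over the matrix-rich spots and 8594, 15505 and 23851 CPM over the other spots, a ratio of 0.538 (0.520 to 0.557). Because most such ratios lay just above 0.5, 4 of 22 genes were called lower: Fabp3, a fatty acid carrier (0.458), the calcium pump Atp2a2 (0.490), the calcium release channel Ryr2 (0.435) and Ckmt2, the mitochondrial creatine kinase (0.483). The list median was -0.89. With TMM scaling 18 of 22 were called lower, and in the upper 37 spots 21 of 22, against 1 of 22, Ryr2, in the lower 37.

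Energy metabolism genes lay on the same side. Of 18 fatty acid oxidation genes 8 were lower and 0 higher, with a median of -0.98, among them Acadm (0.422) and the carnitine transferases Cpt1b (0.425) and Cpt2 (0.487). The 20 nuclear respiratory chain genes had a median of -0.83 with 2 called lower, and 18 with TMM scaling. In the upper 37 spots 17 of the 18 fatty acid oxidation and 20 of the 20 respiratory chain genes were lower, against 0 of each in the lower 37. Of 9 hypoxia genes 1 was higher, Adm (2.02), a share near that of all genes, and with TMM scaling 0 were higher and 3 lower. The lipid droplet gene Plin4 was the one adipocyte gene of 2 tested that was lower (0.461). Glycolysis genes had a median of -0.35 with 0 of 14 called, and Gapdh was at 2823 CPM against 3679 CPM. The 10 smallest ratios by the naming rule were those of Abcc8, Yipf7, Hhatl, Clpx, Fbxo9, Gys1, Aldh1b1, Tuba8, Stk39 and Paqr9, from 0.195 to 0.352. With the top 20% of spots in place of the top 10%, 9 of these 10 were no longer at 0.5 or less. That setting called 81 of 11082 genes lower, and 29 of these were among the 229. Abcc8, the regulatory subunit of ATP-sensitive potassium channels, had 6 UMIs against 355 (ratio 0.195, 0.0712 to 0.429), with a ratio of 0.250 in the upper 37 and of 0.136 (0.0164 to 0.494, from 2 UMIs) in the lower 37. Hhatl, a muscle gene of the endoplasmic reticulum, had 13 against 586 UMIs, and Gys1, the muscle glycogen synthase, 14 against 487.

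Nppa, which encodes atrial natriuretic peptide (chr4:148000722-148002079), was the one gene of the muscle lists called higher outside the sparse atrial and skeletal lists. It was at 0, 1263 and 17794 CPM over the upper 37 spots, 0, 468 and 32384 CPM over the lower 37 and 0, 0 and 19513 CPM over the other spots, so the groups overlapped and single other spots were as high. Pooled, it reached 2751 CPM against 295 CPM, a ratio of 9.32 (8.62 to 10.1), and 1 spot held 22.4% of its UMIs in the group. Of the other 8 genes of the immature and stressed list, Xirp1 was lower (0.469) and 7 were not called, with Ankrd1 at 1415 CPM against 2043 CPM and Myh7 at 1308 against 1249.8 CPM. Of the atrial genes, Myl4 (47 against 107 UMIs) and Stard10 (22 against 56) were higher, while Myl7, the defining atrial light chain, had 2 against 4 UMIs and Sln 1 against 0.

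Against the other spots, 1397 of 10964 genes were higher (12.7%) and 590 lower (5.38%) in the upper 37, and 606 of 10916 were higher (5.55%) and 91 lower (0.834%) in the lower 37. Fibrillar and associated collagens were higher in 10 and 8 of 11, collagen processing genes in 13 and 6 of 18, and matricellular genes in 11 of 11 and 4 of 10. Eln (59.7 and 6.98), Bgn (7.62 and 3.34) and Lox (25.2 and 5.29) had the larger ratio in the upper 37. The elastic fibre list had a median log2 ratio of 2.44 in the upper 37 and 1.34 in the lower 37, and the macrophage list 2.42 and 0.98. Other genes had the larger ratio in the lower 37. Nppa had ratios of 6.39 and 12.5, Vwf of 2.38 and 5.74, Cytl1 of 5.92 and 17.7, and Myl1, a light chain of fast skeletal and embryonic muscle, of 1.87 and 8.30. For Nppa this holds for the pooled counts only, which a few spots dominate. It was found in 35 of the upper 37 and 29 of the lower 37 spots, and its median CPM per spot was larger in the upper 37. The endocardial list had medians of 2.16 over 4 tested genes and 2.64 over 5, since Cytl1, with 4 UMIs in the upper 37, was under the minimum of 20 UMIs there. These values compare each set with the same other spots, and the difference between the sets was not tested.

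**Figure D3:**
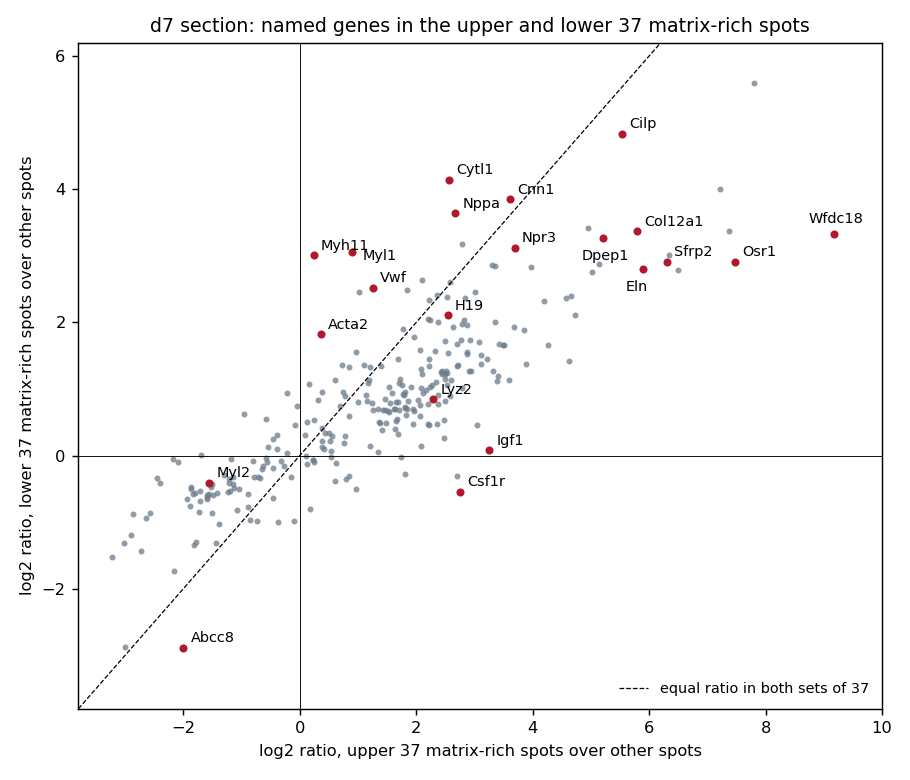
Log2 ratio over the other spots in the upper 37 spots (horizontal) and in the lower 37 spots (vertical) for 286 named genes with at least 20 UMIs over both pools and a UMI in both sets. Wfdc18, Osr1, Sfrp2 and Eln lie far below the line of equal ratios, and Nppa, Cytl1, Myl1, Vwf, Acta2 and Myh11 lie above it.

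Myl1 also bears on the label. The rule removed spots with Mylpf or Myh3, so both genes are at 0 in all remaining spots by construction. In the matrix-rich spots 11 of the 17 skeletal muscle genes had 0 UMIs. As 14 of the 17 had too few UMIs to be tested, these zeros show little. The list together was at 152 CPM against 53.3 CPM, with 68.3 CPM in the upper 37 and 242 CPM in the lower 37. Myl1 had 51 UMIs against 119, a ratio of 4.95 (3.50 to 6.93), with a UMI in 5 of the upper 37, 18 of the lower 37 and 86 of the other spots. Tnnc2, the fast skeletal troponin C, had 5 UMIs against 3. When spots with any UMI of the list were dropped, 51 spots were matrix-rich, 40 of them among the 74, and 978 genes were higher and 209 lower.

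**Figure D4:**
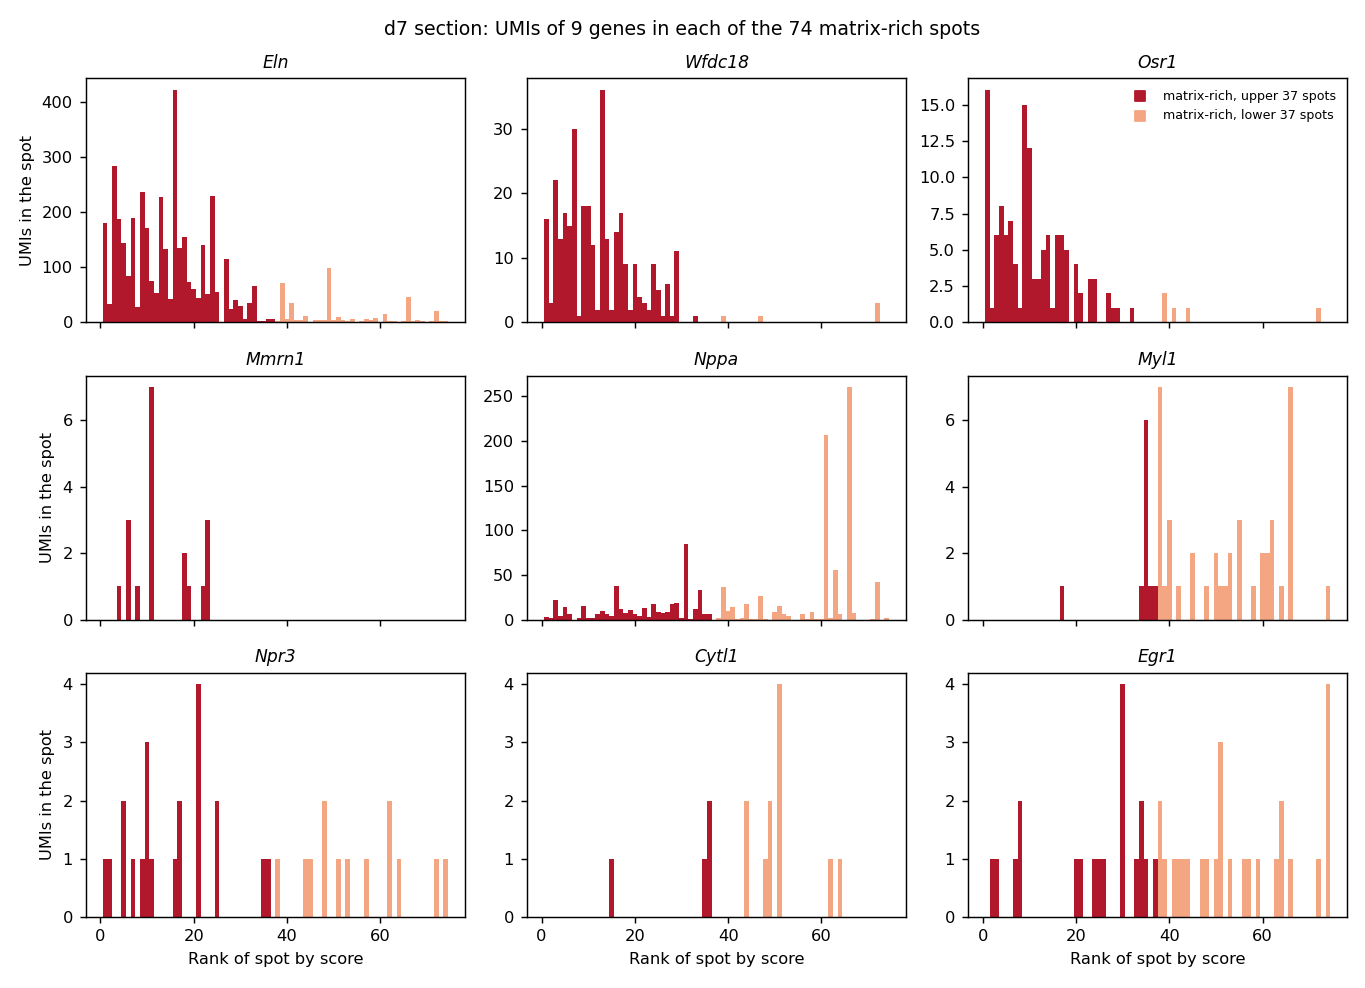
UMIs of 9 genes in each of the 74 matrix-rich spots, ordered by score from the highest, with the upper 37 in dark red and the lower 37 in light orange. Eln, Wfdc18 and Osr1 are concentrated in the upper spots and Mmrn1 is found in 8 of them only, whereas Myl1 and Cytl1 appear mostly in the lower 37 and Nppa is dominated by a few spots.

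Down the whole ranking of 741 spots, divided into 10 parts of 74 or 75, several levels stepped at the top part. Eln was at 9909 CPM in the top part, 593 CPM in the next and 124 CPM in the lowest. Elastic fibre genes together were at 17066, 3019 and 1358 CPM in the same parts, and mature cardiomyocyte genes at 67332, 114070 and 129436 CPM. Egr1 was at 107 CPM in the top part, 105 CPM in the next and 49.7 CPM in the lowest, with intermediate parts between. Among the 73 matrix-rich spots with at least 2500 UMIs, thinned to that depth, the elastic fibre share had a Spearman's rho of -0.83 with the cardiomyocyte share, 0.59 with the lymphatic share, 0.55 with the fibroblast share and 0.33 with the macrophage share. With the endocardial share it was -0.09. These are shares of the same UMIs, so they push against each other by construction, and the values are a description.

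The 33 spots dropped for Mylpf or Myh3 had a median score of 0.451%, above that of the other spots. Had they been kept, 77 spots would have made the top 10%, 13 of them dropped spots, and 64 of the 74 would have stayed in. Eln was at 2571 CPM and Ccl21a at 257 CPM in the dropped spots, so matrix and lymphatic genes were high in part of them too.

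For comparison, the same rule was applied to each section against its own other spots, which gave 43 matrix-rich spots at d1, 65 at d4 and 116 at d14. The top 10% held different scores in each section. The highest d1 score, 1.497%, was below the lowest of the d7 upper 37, 1.513%. The last spot in had 0.641% (d1), 1.18% (d4) and 0.795% (d14), against 0.790% (d7). Median depth was 11847 UMIs in the d4 matrix-rich spots and 7402.5 in their other spots. It was 6133 against 7952 for d1 and 3853 against 3754.5 for d14. The part of score and depth in the comparison was not tested. Barcodes come from a fixed array set, so sections share them. Of the d1, d4 and d14 matrix-rich spots, 0, 11 and 0 carried a barcode of a d7 matrix-rich spot. Genes called higher were 835 of 9951 at d1 (8.39%), 1298 of 11555 at d4 (11.2%) and 1237 of 10532 at d14 (11.7%), and genes called lower made up 2.35%, 6.36% and 1.71%. Of the 1196 genes higher at d7, 293 were also higher at d1 (24.5% of those of d7 and 35.1% of those of d1), 621 at d4 (51.9% and 47.8%) and 518 at d14 (43.3% and 41.9%). Not all of the 1196 had enough UMIs to be tested elsewhere: 975 were tested at d1, 1168 at d4 and 1072 at d14. Among those tested, 30.1%, 53.2% and 48.3% were higher.

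**Figure D5:**
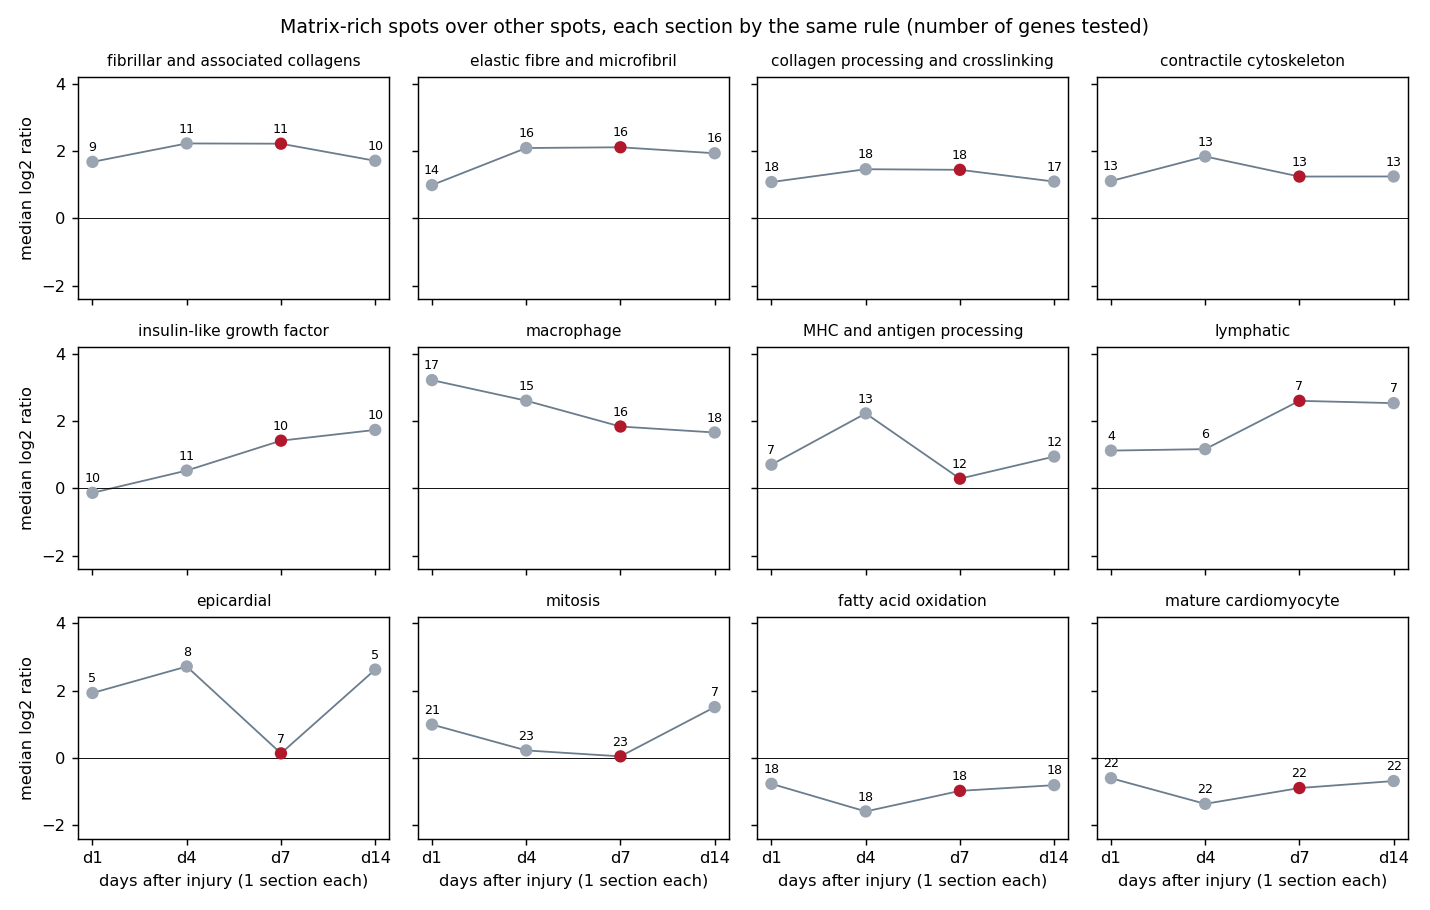
Median log2 ratio of 12 gene lists in the matrix-rich spots over the other spots of each section, at 1, 4, 7 (dark red) and 14 days after injury, 1 section each, with the number of genes tested beside each point. Collagen, elastic and collagen processing lists are above 0.9 throughout, the macrophage list steps down from 3.21 to 1.66, and the epicardial list is lowest at d7 (0.14). At d7 the muscle rule kept 13 spots out of the top 10%, against 1, 1 and 2 at d1, d4 and d14.

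Elastic fibre genes had list medians of 0.99, 2.09, 2.12 and 1.94 at d1, d4, d7 and d14. Eln had its largest ratio at d7, with 1.33, 15.9, 34.4 and 8.06 in that order, and the d7 value exceeded that of d4 by 1.11 (0.99 to 1.23) on the log2 scale and that of d14 by 2.09 (1.96 to 2.23). Osr1 (12.4 at d4, 96.1 at d7, 5.48 at d14) and Sfrp2 (7.61, 44.8 and 7.201) behaved likewise, their d7 values exceeding those of d4 by 2.95 (1.89 to 4.01) and 2.56 (1.99 to 3.13). Wfdc18 was called at d4 (63.2) and d7. Npr3 had ratios of 0.321 (0.0650 to 0.965, from 3 UMIs), 2.81, 10.9 and 2.31, and Nppa of 1.98, 3.45, 9.32 and 3.60. Thbs1 went the other way, with 23.1, 11.1, 2.10 and 8.82, and its d7 value was below that of d4 by 2.41 (difference -2.41, -3.06 to -1.75) on the log2 scale. All of these intervals cover counting error only.

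Cell type lists differed between the sections. The macrophage median was 3.21, 2.60, 1.83 and 1.66 over d1, d4, d7 and d14, and Lyz2 had ratios of 12.3, 6.23, 3.40 and 4.21. Antigen presentation genes were higher in 10 of 13 tested at d4 (median 2.22), 0 of 12 at d7 (0.28, or -0.03 with TMM scaling) and 4 of 12 at d14 (0.94). These are pooled values, and at d7 the median share per spot was 0.151% over the matrix-rich spots and 0.0814% over the other spots. Epicardial medians were 1.93, 2.72, 0.14 and 2.63, with Msln at 17.1, 7.51, 0.218 (0.00542 to 1.27, from 1 UMI) and 6.18. The muscle rule kept 13 spots out of the top 10% at d7, against 1, 1 and 2 at d1, d4 and d14. At d7 the epicardial share reached 0.543% among the dropped spots, against 0.058% among the matrix-rich and 0.104% among the other spots. The part of the muscle rule in the low d7 median was not tested. The low Msln value at d7 turned with the choice of spots, to a log2 ratio of 2.29 with the top 20%. The insulin-like growth factor list had medians of -0.14, 0.53, 1.41 and 1.73, and mitosis genes of 0.99, 0.23, 0.05 and 1.51, the last over 7 tested genes. Egr1 was called higher at d1 (7.40), d4 (2.27) and d14 (4.32) but not at d7 (1.61), where its value was below that of d1 by 2.20 (difference -2.20, -3.14 to -1.26) and of d14 by 1.42 (difference -1.42, -2.37 to -0.48) on the log2 scale. The difference from d4 was smaller, -0.49 (-1.05 to 0.07), and its interval includes 0. Besides the time after injury, the sections differ in age, animal and sex-linked genes, and their matrix-rich spots in score and depth. Where in each heart these spots lie was not analysed here.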

How the data were processed

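The UMI counts per gene and spot were deposited by the authors as raw matrices, made with Space Ranger 1.3.0 and mm10, per the submitters' processing notes, which also name Seurat 4.1.1 with no role. Of 32285 features, 32235 matched GENCODE vM21 by gene ID. No spot position or image was used. Spots under 500 UMIs were left out and spots of a group were summed to pooled CPM, without the 6 scoring, 8 haemoglobin and 13 mitochondrial genes. Genes at 0 in one pool entered at a floor of 3 counts for the pool. Ratios have exact conditional binomial 95% (Clopper-Pearson) intervals, and differences between sections delta-method intervals. These cover counting error only. Fixed-depth shares used spots thinned to 2500 UMIs, which left out 1 matrix-rich and 2 other spots.

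With 1 section a time there was no test between groups. The matrix-rich spots and the 47 gene lists were chosen with earlier results of these data known. Named genes were the 10 largest and 10 smallest called ratios among genes reaching 50 CPM, Egr1, Cdkn1a and Agrn, the 4 genes of each list with most UMIs, and called list members as examples. Predicted, ribosomal protein, haemoglobin, mitochondrial, sex-linked and scoring genes were left out of the 20 extremes. Alternatives changed the scaling, spot and gene minimum, member share, score and muscle rule. The pooled calculation was tested on simulated data. Python 3.11.15, numpy 2.4.6, scipy 1.17.1, pandas 2.3.3, matplotlib 3.10.9, R 4.3.3 and edgeR 4.0.16 (TMM factors only) were used.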

Additional observations from a re-analysis of the deposited data

Results flagged for a closer look

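Myl1, the muscle light chain, was higher in the d7 matrix-rich spots (ratio 4.95) and lower in those of d1 (0.247, 0.0502 to 0.738, from 3 UMIs). Npr3, the natriuretic peptide clearance receptor, was likewise higher at d7 (10.9) and lower at d1 (0.321, 0.0650 to 0.965, also from 3 UMIs). The neutrophil gene S100a9 had 0 UMIs in the d7 matrix-rich spots and 64 in the other spots, or 1.85-fold lower with a floor of 3 counts in place of 0. The floor is a set value and not a limit from the counts. The floored value lies short of a 2-fold change, and the lower call rests on the counted ratio of 0. S100a9 was higher at d1 (3.70) and at d14 (2.56). Igtp, an interferon-inducible GTPase, was lower at d7 (0.478), with its UMIs in 5 matrix-rich and 92 other spots, and higher at d4 (4.42). These genes are given because their calls had opposite directions in 2 sections. The differences were not tested, and each section is 1 heart.

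The spots dropped for skeletal muscle myosin genes carried matrix RNA too: 13 of the 33 would have been in the top 10% of d7 spots had they been kept.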

How the results depend on the processing

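No paired analysis was possible because each time has 1 section, and for the same reason no replicate could be left out. TMM scaling moved the 1196 genes called higher to 677 and the 229 called lower to 726. With the top 5% of spots 585 genes were lower, and with the top 20% 710 were higher and 81 lower. In the lower 37 spots alone, an alternative chosen after seeing the data, 606 were higher and 91 lower. The other settings kept both counts within 1.5 times.

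Some list medians (log2) changed sign. TMM scaling gave -0.0187 for integrins, -0.0680 for immediate early, -0.27 for mitosis and -0.18 for epicardial genes. Mitosis was also at -0.0465 with no spots dropped for muscle genes, -0.0484 with any skeletal muscle UMI dropped, -0.00177 with a score from 3 collagens and -0.15 in the lower 37. Interferon response was at -0.0660 with the top 20% and -0.00328 with a gene minimum of 50 UMIs, epicardial genes were at -0.64 with that minimum, valve genes at -0.0687 with no muscle drop, and hypoxia genes at 0.12 in the lower 37. The immature and stressed cardiomyocyte list was at 0.0107 after thinning and 0.22 in the lower 37. Among called named genes, Myh11 was at -0.11 with the top 5%, and Ctss (-0.30), Mmp11 (-0.0142), Col18a1 (-0.28) and Csf1r (-0.54) were below 0 in the lower 37. Of the 290 named genes with a ratio, 37 uncalled ones also changed sign under some setting, among them Msln, at 2.29 with the top 20%. DNA replication and antigen presentation genes were at -0.27 and -0.03 with TMM scaling, and the second of these lists at -0.22 with the top 20% and -0.27 in the lower 37. The cause was not tested. Counted over each pair of a list and a setting, 509 medians stayed within the set limits, 33 moved and 13 reversed. Over each pair of a named gene and a setting, 3196 ratios stayed, 569 moved and 5 reversed. Only called genes, and lists with unequal numbers of higher and lower calls, could count as reversed. The other sign changes are among the pairs that stayed or moved. Low counts limit the sparse genes, as their intervals show.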
